A study of Mus musculus with 24 samples.

Results

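The transcripts of 10 heat shock chaperone genes were followed through 24 libraries of mouse salivary gland organoids. The genes are Hspa1a, Hspa1b, Hspa8, Hsph1, Hsp90aa1, Hspb1, Hspd1, Hspe1, Dnajb1 and Chordc1. They were chosen by symbol, as members of the protein folding machinery, and are 10 of the 47643 genes in the count tables. All 10 passed the filter on low counts, among 10563 genes tested. The organoids were grown from salivary gland stem/progenitor cells of C57BL/6 mice, taken from glands 14 or 90 days after irradiation (IR) or a mock treatment (sham), and sampled at passage 1 or passage 2. This gives 8 groups of 3 libraries each. The groups are sham and IR at day 14 in passage 1, sham and IR at day 14 in passage 2, sham and IR at day 90 in passage 1, and sham and IR at day 90 in passage 2. All groups shared Matrigel and a medium with EGF, FGF2, insulin, dexamethasone (a glucocorticoid) and Y-27632 (a kinase inhibitor). The labels place the IR before the gland was taken for culture, and the sources used here do not give its dose. Whether the 3 replicates of a group were different mice or different wells is not stated, so each p-value is set against a spread among libraries that could be technical. Passage 1 and passage 2 libraries may also share a source. Replicate numbers are those of the sample titles. For some IR libraries of day 90 the deposited files carry other numbers, so which libraries of the 2 passages belong together is uncertain there.

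Heat shock proteins bind unfolded proteins and either refold them or hold them for degradation. HSP70 proteins (Hspa1a and Hspa1b, which stress induces, and Hspa8, which cells make all the time) work in a cycle with an HSP40 partner such as Dnajb1 and an exchange factor such as Hsph1 (HSP110). HSP90 (here its stress-inducible form Hsp90aa1) finishes the folding of kinases and steroid receptors, Hspb1 is a small heat shock protein that holds clients without ATP, and Hspd1 with its lid Hspe1 forms the folding chamber of mitochondria. Heat shock factor 1 induces many of these genes by binding heat shock elements, inverted repeats of GAA and TTC, in their promoters.

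These elements are shown because most members with a promoter window hold their letters. Promoter windows of 250 bases before to 50 bases after the start, from RefSeq on GRCm38.p6, were matched by symbol for 8 of the 10 genes, in 11 windows. At least 1 of the motifs GAANNTTC and TTCNNGAA, each of which reads the same on both strands, was present for 7 of the 8 genes, against 17% of 27025 genes with such windows. The longer motif GAANNTTCNNGAA, searched on both strands and overlapping the shorter motifs, was present for 4 of the 8 genes, Hsph1, Hspd1, Hspe1 and Chordc1, against 0.662% of all genes. The Dnajb1 windows held neither. In the sequences below, capitals mark the bases of these motifs, and each Hspa1 and Hspb1 stretch runs from 150 bases before to 30 bases after the start.
Hspa1a, chr17:34972127-34972306, minus strand: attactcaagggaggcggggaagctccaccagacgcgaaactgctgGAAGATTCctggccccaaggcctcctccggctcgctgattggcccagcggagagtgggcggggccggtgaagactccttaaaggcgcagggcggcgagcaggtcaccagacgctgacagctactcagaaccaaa
Hspa1b, chr17:34959209-34959388, minus strand: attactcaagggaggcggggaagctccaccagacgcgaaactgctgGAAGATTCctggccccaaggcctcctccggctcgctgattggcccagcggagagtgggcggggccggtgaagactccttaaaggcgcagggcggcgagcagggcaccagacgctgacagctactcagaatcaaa
Hspb1, chr5:135887769-135887948, plus strand: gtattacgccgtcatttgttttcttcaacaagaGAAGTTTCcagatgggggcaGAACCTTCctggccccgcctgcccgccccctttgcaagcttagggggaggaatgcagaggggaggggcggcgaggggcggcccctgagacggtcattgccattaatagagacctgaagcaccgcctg
Hspe1 and, read from the other strand, Hspd1, chr1:55088053-55088082, plus strand: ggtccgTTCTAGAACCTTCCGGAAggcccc
Hsph1, the shorter motif, chr5:149636351-149636380, minus strand: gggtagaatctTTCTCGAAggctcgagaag
Hsph1, the longer motif, starting 15 bases after the start of 1 of its windows, chr5:149636286-149636308, minus strand: gctgcagaTTCTGGAAAGTTCtc
Chordc1, chr9:18292260-18292288, plus strand: ccgGAACGTTCGGGAAAATTCCTGAAgca
The Hspa1a and Hspa1b windows differed at 4 of 300 bases (98.7% identity), and their printed stretches at 2. By 1 of its 2 windows, Hspd1 starts back to back with Hspe1. That window shares 285 bases with the Hspe1 window, and a single run of motif letters lies between these starts. The other Hspd1 window held no motif, and its start does not lie back to back with that of Hspe1. A match is a run of letters and was not tested as a binding site.

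Libraries held 1151608 to 3189466 counts on genes, and 13402 to 15539 genes were detected in each. Values below are CPM, gene counts scaled to a common library size, with TMM factors that correct for a few abundant transcripts. Members had between 15 and 1722 counts in a library. The RNA was that of epithelium: Cdh1 was at 848 CPM or more and Krt14 at 864 CPM or more in every library, while the summed markers of fibroblasts, endothelium and leukocytes did not exceed 3.65, 2.11 and 7.75 CPM. Of 6 acinar markers Amy1 and Bhlha15 were at or near 0 (up to 3.35 and 0.590 CPM), Aqp5 was at 13.1 to 72.8 CPM and Pip at 10.1 to 2170 CPM in every library, and Smgc and Mucl2 ran from 0 to 25.4 and 134 CPM. Gm42418, a ribosomal RNA-like locus, took 11.8% to 29.0% of the counts. In RNA from whole organoids, fewer cells of a type and less RNA per cell cannot be told apart.

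Of the 10 chaperones, 3 differed among the 8 groups, a share to be read against 15% of all tested genes (edgeR quasi-likelihood F test, called at adjusted p under 0.05). They were Hsp90aa1 (adjusted p = 0.00469), Dnajb1 (adjusted p = 0.0295) and Chordc1 (adjusted p = 0.0013). Each went with a different part of the design. Hsp90aa1 was higher after IR and lower in passage 2, Chordc1 was higher at day 90, and Dnajb1 had its lowest levels in the IR groups of day 90. The Dnajb1 call was lost, with adjusted p values of 0.055 to 0.0725, on leaving out replicate 2 or 3 of sham day 14 passage 2, of IR day 90 passage 1 or of IR day 90 passage 2, and in a fit with a term for the Gm42418 share (adjusted p = 0.0523). With the interferon level of each library as a covariate, described further on, Hsp90aa1 (adjusted p = 0.139) and Dnajb1 (adjusted p = 0.0649) were not called and Chordc1 was (adjusted p = 0.00102).

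**Figure D1:**
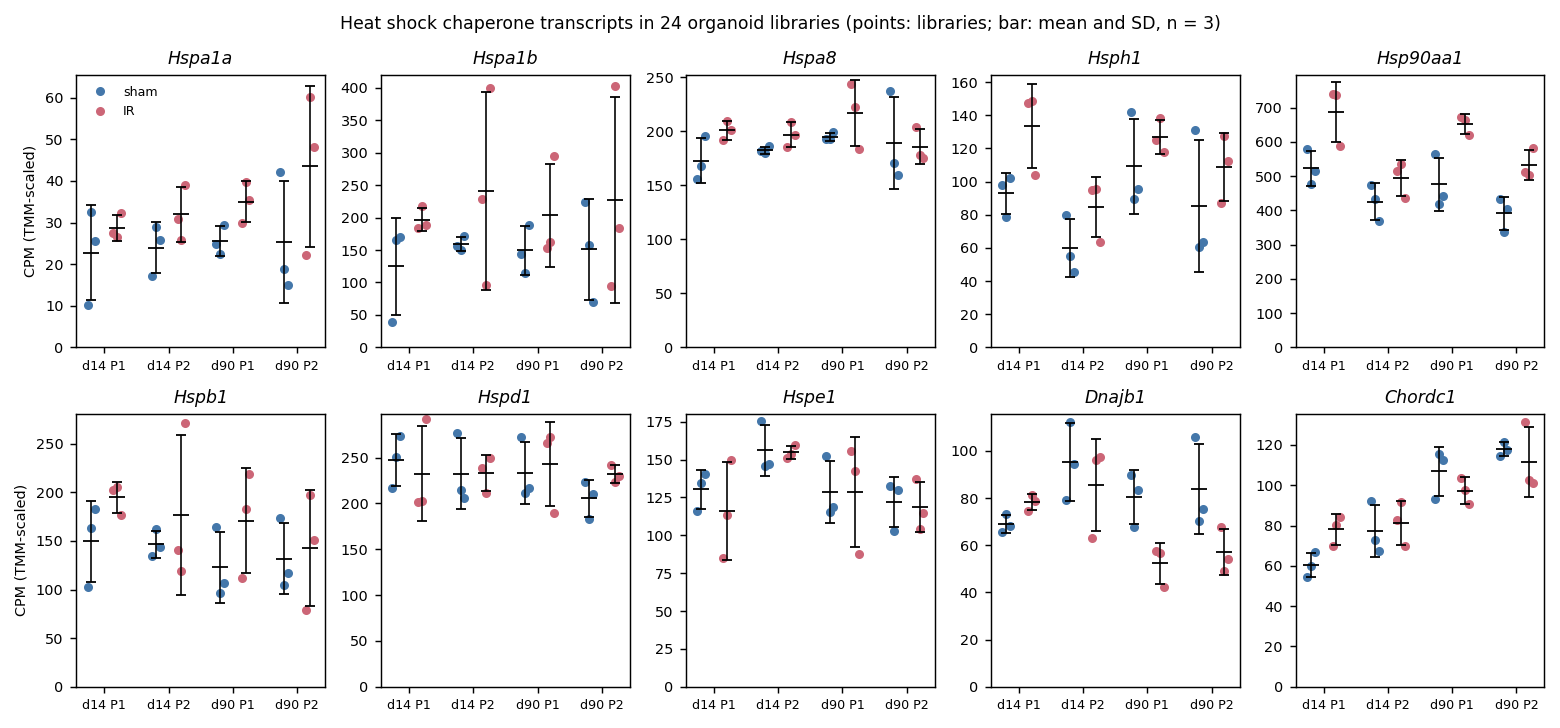
CPM of the 10 chaperone genes (vertical axes from 0, 1 panel per gene) in the 24 libraries by day and passage, with sham in blue and IR in red, and bars for the mean and SD of 3 libraries. Hsp90aa1 in IR libraries sits above sham in each pair of groups by its mean, Chordc1 rises from 54.7 to 92.1 CPM at day 14 to 90.5 to 132 CPM at day 90, and Hspa1b spreads from 39.2 to 402 CPM.

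Hsp90aa1 was the member called in the mean IR effect. At day 14 in passage 1 the sham libraries held 579, 477 and 515 CPM and the IR libraries 739, 737 and 587 CPM. At day 14 in passage 2 the sham libraries held 475, 433 and 369 CPM and the IR libraries 516, 536 and 435 CPM. The IR libraries were all above the sham libraries in the first of these pairs of groups, and the values overlapped in the second. At day 90 in passage 1 the sham libraries held 565, 420 and 442 CPM and the IR libraries 673, 665 and 620 CPM. At day 90 in passage 2 the sham libraries held 433, 338 and 403 CPM and the IR libraries 513, 503 and 583 CPM. At day 90 every IR library lay above every sham library of its passage.

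The log2 fold change of Hsp90aa1, IR against sham, was 0.39 (SE 0.15) and 0.22 (SE 0.15) at day 14 in passages 1 and 2, and 0.46 (SE 0.15) and 0.44 (SE 0.15) at day 90. None of these passed the test alone, with adjusted p values of 0.0953 to 0.844. Their mean, tested over all 24 libraries, was 0.38 (SE 0.08, adjusted p = 0.00263). The mean group level fell in the order IR day 14 passage 1 (688 ± 86.9 CPM, SD, n = 3), IR day 90 passage 1 (653 ± 28.7 CPM) and IR day 90 passage 2 (533 ± 43.9 CPM). Sham day 14 passage 1 (524 ± 51.3 CPM), IR day 14 passage 2 (495 ± 53.1 CPM) and sham day 90 passage 1 (476 ± 78.4 CPM) followed, then sham day 14 passage 2 (426 ± 53.4 CPM) and sham day 90 passage 2 (391 ± 48.7 CPM). The step from IR day 90 passage 1 to IR day 90 passage 2 exceeded the SDs of both groups, the first step exceeded the SD of IR day 90 passage 1 alone, and each of the others was smaller than the SDs of the groups beside it.

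Of the 10 members, Hsp90aa1 was the only one called in the mean IR effect, a share near the 11.0% of all tested genes. At an unadjusted p under 0.05 the count was 5 of 10 members, against 2731 of 10563 genes. The mean IR effects of Hspa1b (0.57), Hspa1a (0.49) and Hsph1 (0.40) were larger, with larger SEs, and were not called. The call of Hsp90aa1 thus does not set it apart from them by size. The log2 fold change of Hsp90aa1 lay between 0.27 and 0.41 in 34 alternative fits, and it was called in each. In the IR groups taken singly no member was called, where edgeR called 0.341% of all genes at day 14 in passage 1, 0.0189% at day 14 in passage 2, 0.0473% at day 90 in passage 1 and 4.92% at day 90 in passage 2. At an unadjusted p under 0.05 the counts of members were 2, 0, 2 and 3. Of all 10563 tested genes, 1160, 711, 1339 and 1929 had such a p. DESeq2 called 0 members in each. The 4 tests of whether the IR effect differed by day or passage called 0 members by edgeR and by DESeq2. Of all genes edgeR called 0.0189% and 0.00947% in the tests by day in passages 1 and 2, and 0% in both tests by passage. Of the 10 members, 2 had an unadjusted p under 0.05 in the test by day in passage 1, and 0 in the other 3 tests. Of all 10563 genes, 857 and 543 had such a p in the tests by day in passages 1 and 2. In the tests by passage at days 14 and 90 it was 729 and 407.

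Other measures moved with Hsp90aa1. The summed luminal duct keratins (Krt7, Krt8, Krt18, Krt19) were higher in all IR than in all sham libraries of each pair of groups, at 1168 to 1502 against 1011 to 1085 CPM at day 14 in passage 1 and at 392 to 667 against 265 to 300 CPM in passage 2. At day 90 they were at 1541 to 1848 against 920 to 986 CPM in passage 1, and at 911 to 1264 against 354 to 434 CPM in passage 2. Their part in the Hsp90aa1 result was not tested. The mean IR and mean passage effects called 11.0% and 11.7% of all genes. Among 14 measured interferon response genes, 12 were lower in the first and 11 higher in the second. The libraries fell into 2 separate ranges of their mean level, 14 libraries at 1.61 to 3.70 and 10 at 4.80 to 6.47 on the log2 CPM scale. In the lower range Hsp90aa1 was at 513 to 739 CPM in 9 IR libraries and at 442 to 579 CPM in 5 sham libraries. In the upper range it was at 435 to 583 CPM in 3 IR libraries and at 338 to 477 CPM in 7 sham libraries. IR and sham libraries overlapped within both ranges. The interferon level had an r of -0.78 with Hsp90aa1 over the 24 libraries. Within the lower and upper ranges the r was -0.50 and -0.68. Without the 2 libraries farthest from the median these were -0.19 and -0.14. The Gm42418 share had an r of 0.59 with Hsp90aa1 over the 24 libraries, and of 0.68 as deviations from group means. Its values too fell into 2 separate ranges, 11.8% to 17.2% in 7 libraries and 21.7% to 29.0% in 17. Within these ranges its r with Hsp90aa1 was -0.08 and 0.17. In a fit with a term for this share the mean IR effect on Hsp90aa1 was 0.31 (adjusted p = 0.0104). With the interferon level as a covariate, an alternative chosen after the data were seen, the mean IR effect on Hsp90aa1 was 0.27 (adjusted p = 0.0425).

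**Figure D2:**
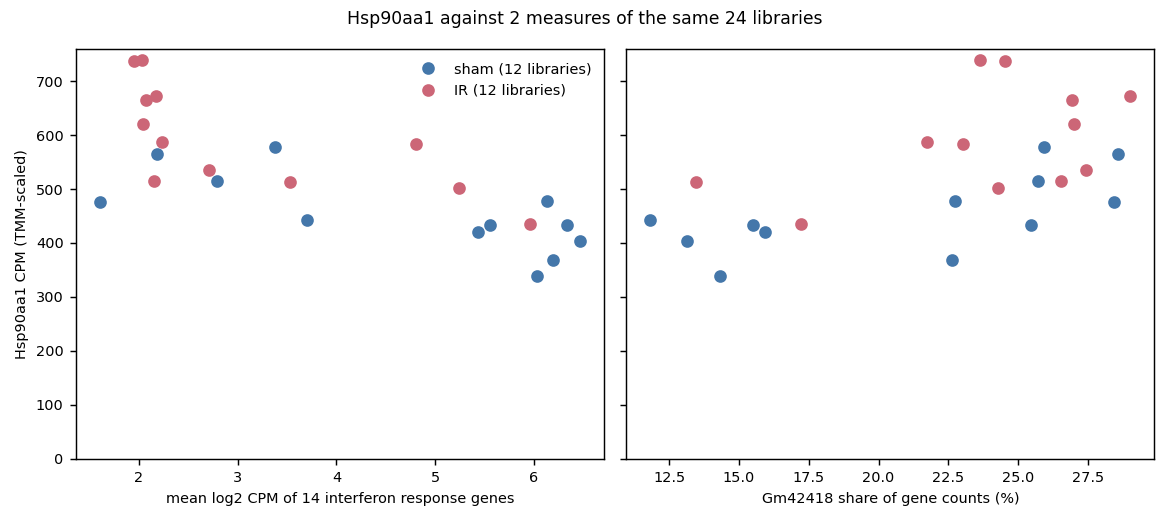
Hsp90aa1 in CPM (vertical axis from 0) against the mean log2 CPM of 14 interferon response genes (left) and the Gm42418 share of counts in percent (right), each point a library, sham in blue and IR in red. The libraries fall into 2 separate ranges on the left axis and the highest Hsp90aa1 values, 737 and 739 CPM, lie in the lower one.

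Hsph1, the exchange factor of HSP70, followed Hsp90aa1. The sham libraries held 97.9, 78.6 and 102 CPM and the IR libraries 148, 148 and 104 CPM at day 14 in passage 1. In passage 2 at day 14 they held 79.6, 54.9 and 45.6 CPM against 94.6, 95.6 and 63.7 CPM. At day 90 the sham libraries held 142, 89.8 and 95.5 CPM in passage 1 and 131, 60.8 and 63.8 CPM in passage 2, and the IR libraries 125, 138 and 118 CPM and 86.9, 127 and 112 CPM. The groups were apart at day 14 in passage 1 and overlapped elsewhere, where at day 90 replicate 1 of each sham group stood above its fellows. The mean IR effect was 0.40 (SE 0.13, 95% interval 0.13 to 0.66) and missed the threshold (adjusted p = 0.0605). It passed on leaving out any of 6 libraries, most clearly without replicate 1 of sham day 90 passage 2 (0.51, adjusted p = 0.00787). The others were replicate 3 of IR day 14 passage 1 (adjusted p = 0.0448), replicate 1 of sham day 14 passage 2 (adjusted p = 0.0277), replicate 3 of IR day 14 passage 2 (adjusted p = 0.0319), replicate 1 of sham day 90 passage 1 (adjusted p = 0.0336) and replicate 1 of IR day 90 passage 2 (adjusted p = 0.0311). It also passed with DESeq2 (0.39, adjusted p = 0.0423), with no filter on low counts (0.39, adjusted p = 0.00376) and with the replicate number as a block (0.41, adjusted p = 0.0284). Without the filter, more of all genes were called among the 8 groups and in each single IR effect, as given further on. The mean IR effect on Hsph1 was smaller, and not called, in a fit with a term for the Gm42418 share (0.24, adjusted p = 0.223) and with the interferon level as a covariate (0.18, adjusted p = 0.405). The interferon level had an r of -0.67 with Hsph1 over the 24 libraries. Within its lower and upper ranges the r was -0.44 and -0.81, or -0.24 and -0.75 without the 2 farthest libraries.

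The stress-inducible HSP70 genes Hspa1a and Hspa1b were the most variable members. Hspa1b held 39.2, 165 and 169 CPM in sham and 184, 217 and 189 CPM in IR libraries at day 14 in passage 1. In passage 2 at day 14 it held 156, 149 and 171 CPM in sham and 229, 95.6 and 399 CPM in IR libraries. Its IR libraries were all above sham in the first pair of groups, and in the second they lay on both sides of it. At day 90 it held 144, 115 and 189 CPM in sham and 153, 162 and 295 CPM in IR libraries of passage 1, and 224, 158 and 70.2 CPM against 94.9, 402 and 183 CPM in passage 2. Groups overlapped at day 90, and the IR libraries of passage 2 alone ran from 94.9 to 402 CPM.

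Hspa1a, whose coding sequence is nearly the same as that of Hspa1b, held 10.1, 32.6 and 25.7 CPM in sham and 27.4, 26.5 and 32.4 CPM in IR libraries at day 14 in passage 1. It held 17.1, 28.9 and 25.8 CPM against 31.0, 25.9 and 39.1 CPM at day 14 in passage 2. Its values at day 90 were 24.8, 22.5 and 29.5 CPM against 29.9, 39.7 and 35.5 CPM in passage 1, and 42.2, 18.8 and 15 CPM against 22.3, 60.2 and 48.3 CPM in passage 2. IR libraries were all above sham at day 90 in passage 1, by a narrow margin, and overlapped with sham in the other pairs of groups. Hspa1a took 8.93% to 21.3% of the counts of both genes. The sources used here do not say how reads that match both genes were counted, so the split between them is uncertain.

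The mean IR effect was 0.49 (SE 0.19, adjusted p = 0.102) for Hspa1a and 0.57 (SE 0.26, adjusted p = 0.164) for Hspa1b, and 0.56 (SE 0.24, adjusted p = 0.144) for their sum. The 95% intervals, 0.11 to 0.86 for Hspa1a and 0.06 to 1.07 for Hspa1b, leave the size of any difference wide. Hspa1a passed on leaving out replicate 1 of sham day 90 passage 2 (0.63, adjusted p = 0.0222) or replicate 1 of IR day 90 passage 2 (0.57, adjusted p = 0.0264). With no filter on low counts both genes passed (Hspa1a at 0.48, adjusted p = 0.00427, and Hspa1b at 0.56, adjusted p = 8.1e-07). The effects hardly differed from those with the filter. That setting called more of all genes among the 8 groups and in each single IR effect, as given further on. These adjusted p values are therefore not stronger evidence for either gene. Without replicate 1 of IR day 90 passage 2, Hspa1a was also called at day 90 in passage 2 (1.09, adjusted p = 0.0466), as it was with no filter (0.75, adjusted p = 0.0472).

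Hspa8, the constitutive HSP70, stayed between 155 and 244 CPM in all 24 libraries. Its median was 184 CPM over 12 sham and 199 CPM over 12 IR libraries, and its mean IR effect was 0.11 (SE 0.07, adjusted p = 0.348). Hspb1, the small heat shock protein, ran from 96.5 to 183 CPM in sham libraries and from 78.9 to 271 CPM in IR libraries. Its mean IR effect was 0.31 (SE 0.16, adjusted p = 0.239). It was called with no filter on low counts (0.31, adjusted p = 0.0318), the setting with more calls over all genes. Its highest and lowest values, in replicate 3 of IR day 14 passage 2 and in replicate 1 of IR day 90 passage 2, both came from IR groups.

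Dnajb1, the HSP40 partner that hands clients to HSP70, had the opposite sign. At day 14 it held 65.5, 73.3 and 68.3 CPM in sham and 74.5, 81.3 and 78.8 CPM in IR libraries of passage 1, and 79.0, 112 and 94.3 CPM against 63.1, 96.2 and 97.4 CPM in passage 2. At day 90 it held 89.7, 67.6 and 83.6 CPM in sham and 57.7, 56.8 and 42.4 CPM in IR libraries of passage 1, and 106, 70.2 and 75.5 CPM against 67.9, 48.9 and 54.3 CPM in passage 2. Every IR library was above sham at day 14 in passage 1 and below sham at day 90 in both passages. The summed acinar markers were likewise lower in all IR libraries at day 90, at 33.5 to 182 against 305 to 388 CPM in passage 1 and 150 to 292 against 316 to 1371 CPM in passage 2. By medians over all libraries this sum was mostly Pip (301 CPM, against 32.5 CPM for Aqp5, the next highest). The basal duct markers were at 1724 to 3763 against 4423 to 7206 CPM in passage 1 and overlapped in passage 2 (1313 to 5224 against 4964 to 8065 CPM). Their part in the Dnajb1 values was not tested. The log2 fold changes were 0.18 (SE 0.20), -0.15 (SE 0.19), -0.61 (SE 0.20) and -0.55 (SE 0.19) in that order, with adjusted p values of 0.843, 0.931, 0.197 and 0.109. Their mean was -0.28 (SE 0.10, adjusted p = 0.0636). The change of the IR effect from day 14 to day 90 in passage 1 was -0.79 (SE 0.28, unadjusted p = 0.0104, adjusted p = 0.403), which failed the correction. The mean effect passed on leaving out replicate 1 of sham day 14 passage 2 (adjusted p = 0.0412), replicate 3 of IR day 14 passage 2 (adjusted p = 0.0406), replicate 2 of sham day 90 passage 2 (adjusted p = 0.0474) or replicate 1 of IR day 90 passage 2 (adjusted p = 0.0294). Without that last library, Dnajb1 was also called at day 90 in passage 2 (-0.70, adjusted p = 0.0375).

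The mitochondrial pair showed no call with IR. Hspd1 ran from 183 to 277 CPM in sham and from 190 to 292 CPM in IR libraries, and its mean IR effect was 0.04 (95% interval -0.13 to 0.21). Hspe1 ran from 103 to 176 CPM in sham and from 85.1 to 160 CPM in IR libraries, and its mean IR effect was -0.05 (95% interval -0.25 to 0.15). Chordc1, a zinc-binding partner of HSP90, likewise had a mean IR effect of 0.06 (95% interval -0.09 to 0.20).

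Counted over members, the IR libraries were all above the sham libraries for 5 of 10 at day 14 in passage 1 (Hspa1b, Hsph1, Hsp90aa1, Dnajb1 and Chordc1), against 8.84% of all tested genes. For no member were they all below sham there (8.40% of all genes). At day 14 in passage 2 both counts were 0 (6.06% above and 5.49% below). The count above sham was 2 at day 90 in passage 1 (Hspa1a and Hsp90aa1, 9.21%) and 2 at day 90 in passage 2 (Hsp90aa1 and Hspd1, 10.9%). Dnajb1 was the member with all IR libraries below sham at day 90, in passage 1 (10.3% of all genes) and in passage 2 (9.64%). The mean of the IR group was above that of sham in all 4 pairs of groups for Hspa1a, Hspa1b, Hsph1, Hsp90aa1 and Hspb1, against 15.5% of all genes, and in none for Hspe1 on the CPM scale. The median mean IR effect was 0.21 over the 10 members and 0.0033 over all tested genes.

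**Figure D3:**
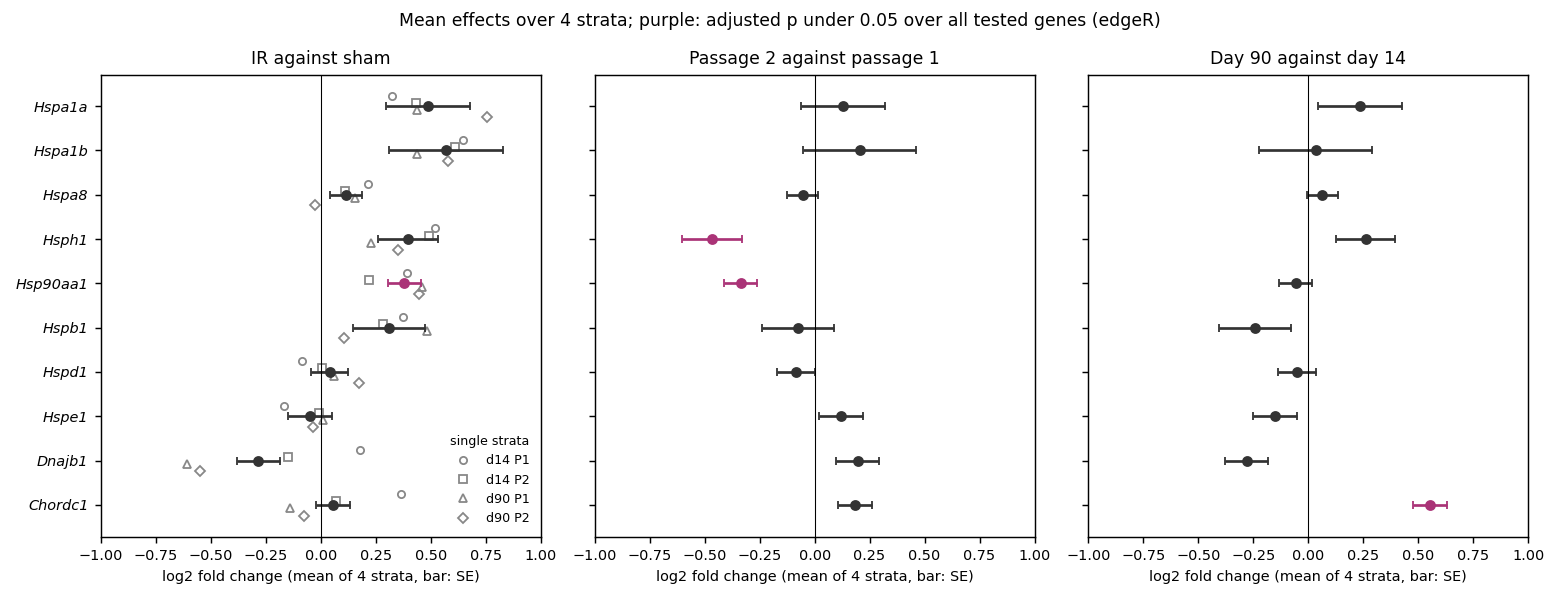
Log2 fold changes of the 10 chaperone genes, with the mean of 4 effects and its SE as filled points and bars, for IR against sham, passage 2 against passage 1 and day 90 against day 14. Open grey points in the left panel are the 4 single IR effects, and purple marks an adjusted p under 0.05: Hsp90aa1 for IR (0.38), Hsph1 and Hsp90aa1 for passage (-0.47 and -0.34) and Chordc1 for day (0.55).

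Between passages, 2 of the 10 members were called, both lower in passage 2, against 11.7% of all genes. Hsp90aa1 had a mean passage effect of -0.34 (SE 0.08, adjusted p = 0.00506) and Hsph1 of -0.47 (SE 0.13, adjusted p = 0.0275). The median of 12 libraries was 583 CPM in passage 1 and 455 CPM in passage 2 for Hsp90aa1, and 111 and 83.2 CPM for Hsph1. In sham organoids alone no member was called between passages at day 14 (1.18% of all genes called by edgeR) or at day 90 (1.36%). There, 3 and 0 members had an unadjusted p under 0.05, against 1208 and 1474 of 10563 genes. DESeq2 called 0 members in both. The luminal duct keratins were lower and the interferon response genes higher in passage 2, and 4 of 10 proliferation genes were lower, in a contrast that called 11.7% of all genes in either direction (Cenpf at -0.89, Cdk1 at -0.70 and Ccnb1 at -0.82 among them). The part of the keratins and proliferation genes in the passage result was not tested. With the interferon level as a covariate, the passage effect was -0.22 for Hsp90aa1 (adjusted p = 0.136) and -0.22 for Hsph1 (adjusted p = 0.403), so both calls were lost. The Hsph1 call was also lost in a fit that took the Gm42418 share of each library into account (-0.33, adjusted p = 0.0769), and with adjusted p values of 0.0501 to 0.0601 on leaving out any of 6 libraries. These were replicate 3 of sham day 14 passage 1, replicate 1 of IR day 14 passage 1, replicates 2 and 3 of sham day 14 passage 2, replicate 1 of sham day 90 passage 1 and replicate 3 of sham day 90 passage 2.

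Between days, Chordc1 was the member called, against 4.81% of all genes. At day 14 its sham libraries held 54.7, 59.9 and 66.7 CPM in passage 1 and 92.1, 72.6 and 67.2 CPM in passage 2, and its IR libraries 69.7, 80.3 and 84.4 CPM and 82.6, 91.6 and 69.9 CPM. At day 90 its sham libraries held 93.1, 115 and 112 CPM in passage 1 and 114, 122 and 118 CPM in passage 2, and its IR libraries 104, 97.8 and 90.5 CPM and 132, 102 and 101 CPM. Within each treatment and passage all day 90 libraries lay above all day 14 libraries. The share of all tested genes separated by day in this way was not counted. The mean day effect was 0.55 (SE 0.08, adjusted p = 0.000361), and the call was kept in 34 alternative fits. In sham organoids alone the effect was 0.82 (SE 0.15, adjusted p = 0.0536) in passage 1, where edgeR called 0% of all genes, and 0.61 (SE 0.15, adjusted p = 0.0729) in passage 2, where it called 0.426%. In each of these, 1 member had an unadjusted p under 0.05, against 1025 and 1448 of 10563 genes. DESeq2 called 1 member in each, Chordc1. Hsph1, at 0.26 (SE 0.13, adjusted p = 0.278) in the mean day effect, was called with total-count scaling (0.40, adjusted p = 0.029) and with the Gm42418 covariate (0.49, adjusted p = 0.0316). The mean day effect of Dnajb1 was -0.28 (SE 0.10, adjusted p = 0.101), and it passed without replicate 1 of sham day 90 passage 2 (-0.33, adjusted p = 0.0473). The 2 days are separate sets of organoids, and the sources used here do not say whether they were processed together.

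Libraries of a group differed far more for some members than for others. The SD of log2 CPM within groups was 0.77 for Hspa1b, more than that of 99.5% of the 773 genes of like level, 0.52 for Hspa1a (91.9% of 2173 genes) and 0.45 for Hspb1 (92.5% of 854 genes). It was 0.16 for Hspa8 (20.0% of 611 genes), 0.17 for Hsp90aa1 (24.2% of 165 genes) and 0.16 for Chordc1 (21.1% of 1348 genes). The induced HSP70 genes and the small heat shock protein thus carried the widest spread, and the constitutive HSP70, Hsp90aa1 and Chordc1 were narrow.

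Members also deviated from their group means in sets. Over the 24 libraries the deviations of Hspd1 and Hspe1 had a Pearson r of 0.89 (Spearman 0.87), and those of Hspa1a and Hspa1b of 0.82 (Spearman 0.74). Hsph1 and Hsp90aa1 had an r of 0.80 (Spearman 0.79), and Hspb1 had an r of 0.78 with Hspa1b (Spearman 0.71) and of 0.74 with Hspa1a (Spearman 0.76). Without the 2 libraries farthest from the median these were 0.83, 0.76, 0.80, 0.74 and 0.70. The pair of sets was not joined: Hsp90aa1 had an r of -0.33 with Hspa1b (Spearman -0.30) and of -0.21 with Hspa1a. The lowest of the 45 pairs was Hspb1 with Chordc1, at -0.60 (Spearman -0.58). Deviations of the Gm42418 share had an r of 0.68 with those of Hsp90aa1 and of 0.71 with those of Hsph1, and its part in their pairing was not tested. Within the 2 separate ranges of the share, levels had an r of -0.08 and 0.17 for Hsp90aa1 and of -0.05 and 0.24 for Hsph1. All members of a library share its depth and scaling, and reads of Hspa1a and Hspa1b may be shared, so these values are descriptions.

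In the HSP70 set the extreme values of Hspa1a and Hspa1b came from the same libraries. Replicate 1 of sham day 14 passage 1 was the lowest of all 24 for Hspa1a and Hspa1b. It was also the lowest for Hspa8 (155 CPM) and Chordc1 (54.7 CPM), which are outside that set. Replicate 2 of IR day 90 passage 2 was the highest for Hspa1a and Hspa1b. The first of these libraries also stood at one end of the 24 libraries in reads outside any gene (26.5% of all counts listed for it), in the share of mitochondrial ribosomal RNA (15.8%) and in its TMM factor (0.861, the lowest). The part of these measures in its low chaperone values was not tested. Immediate early genes, which cells switch on within minutes of a stimulus, moved with part of this set. The mean level of 16 such genes, as deviations from group means over 24 libraries, had an r of 0.78 with Hspa1a (Spearman 0.70, 0.73 without the 2 farthest libraries), of 0.55 with Hspb1 (Spearman 0.54) and of 0.48 with Hspa1b (Spearman 0.33). Their part in the HSP70 values was not tested.

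**Figure D4:**
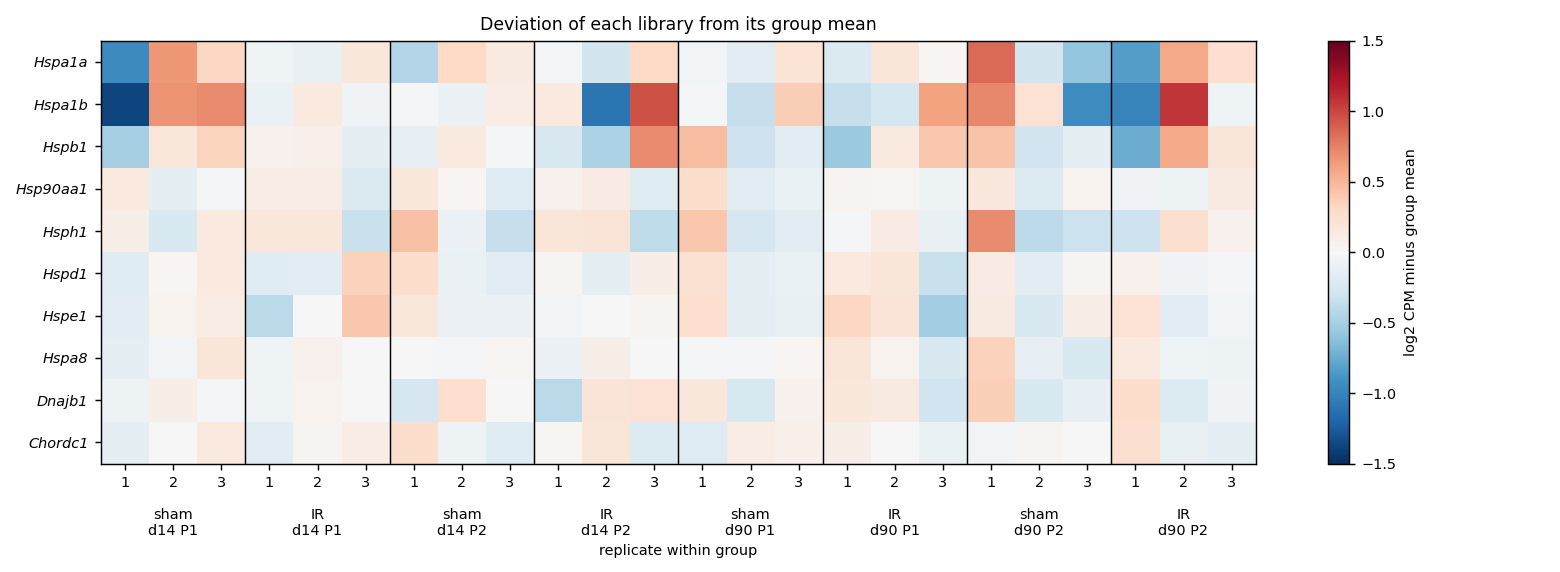
Deviation of each library from its group mean, in log2 CPM (red above, blue below), for the 10 chaperone genes in rows and the 24 libraries in columns by group and replicate. Hspa1a, Hspa1b and Hspb1 share their strong columns, among them sham day 14 passage 1 replicate 1 and IR day 90 passage 2 replicate 2, while Hsp90aa1 pairs with Hsph1 and Hspd1 with Hspe1.

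The rest of the folding machinery was read from lists. No heat shock factor or regulator was called in any of the 16 comparisons by edgeR or by DESeq2, of 4 tested (Hsf1, Hsf2, Hsbp1, Hikeshi). At an unadjusted p under 0.05 the count was 1 in the IR effect at day 14 in passage 1 (1160 of 10563 genes). It was 1 in the test by day in passage 1 (857 of 10563 genes) and 0 in the other 14. Hsf1, singled out after its values were seen, had a mean IR effect of 0.32 (SE 0.19, adjusted p = 0.322) at a mean of 7.23 CPM. Of 15 other cytosolic HSP70, HSP90, HSP40 and small heat shock genes, 3 rose with IR by edgeR and 0 fell (DESeq2 called 2, both higher), where 11.0% of all genes were called. The median effect was 0.07 against 0.0033 for all genes. The 3 were Cryab, a small heat shock protein (1.10, SE 0.15, adjusted p = 0.000134, from a mean of 72.2 CPM in sham to 143 CPM in IR libraries), Dnaja1 (0.35, adjusted p = 0.00533) and Dnaja4 (0.40, adjusted p = 0.0429), both HSP40 proteins. Hsp90ab1, the constitutive counterpart of Hsp90aa1 and likewise singled out after its values were seen, had a mean IR effect of -0.01 (SE 0.10). The IR effect on Cryab reached 1.78 (SE 0.31, adjusted p = 0.00216) at day 90 in passage 2.

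With passage, where 11.7% of all genes were called, Cryab (-1.21) and Dnaja1 (-0.26) fell and Hspb8, another small heat shock protein, rose (0.47). Cryab and Dnaja1 thus had the signs of Hsp90aa1 in both contrasts. In sham organoids the passage effect on Cryab was -1.30 at day 14 and -1.63 at day 90. With day, where 4.81% of all genes were called, Dnajb6 rose (0.45) and Dnajb4 fell (-0.57), both of them HSP40 proteins.

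Of 19 co-chaperones, 0 were called in the mean IR or the mean passage effect by edgeR or by DESeq2, with 2 at an unadjusted p under 0.05 in each. Of all genes edgeR called 11.0% and 11.7% there, and 2731 and 2745 of 10563 had an unadjusted p under 0.05. DESeq2 called 1, lower, in the IR effect at day 90 in passage 2. With day 2 rose by edgeR (1 by DESeq2, and 4.81% of all genes called), Tomm34 (0.31) and Bag3 (0.25), an HSP70 partner in autophagy. Of 14 genes of the TRiC chaperonin and its partner prefoldin, Pfdn2 fell with IR (-0.30) and rose with day (0.36). These contrasts called 11.0% and 4.81% of all genes. No other gene of the list was called by edgeR in them or with passage, where DESeq2 called 1. Of 12 other mitochondrial chaperones and proteases, Clpb (0.56) and Hspa9 (0.23), the mitochondrial HSP70, rose with passage, against 11.7% of all genes called.

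Of 17 endoplasmic reticulum chaperones, 4 rose with IR by edgeR (3 by DESeq2) and 0 fell, against 11.0% of all genes called, with a median effect of 0.15. Among them were Dnajb11 (0.37), Hyou1 (0.48) and Dnajc3 (0.20). At day 90 in passage 2, where 4.92% of all genes were called, 3 rose (2 by DESeq2), Dnajc3 (0.46), Hyou1 (0.95) and Manf (0.91). With passage (11.7% of all genes called) 3 fell, Manf (-0.46) and Dnajc3 (-0.21) among them, and Herpud1 rose (0.46). Dnajb9, an HSP40 protein of the endoplasmic reticulum, fell with day (-0.71), where 4.81% of all genes were called.

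Of the lists kept to describe the libraries, 12 of 14 interferon response genes fell in the mean IR effect, against 11.0% of all genes called. Isg15 (-2.47), Rsad2 (-2.54) and Bst2 (-1.73) were among them. In the mean passage effect 11 rose, against 11.7% of all genes, with Irf7 (2.58), Bst2 (1.75) and Oasl2 (2.72) among them. No gene of this list was called in a single IR effect or between passages in sham organoids. The median effects of IR were still -3.33 and -0.81 at day 14 and -2.78 and -1.32 at day 90, in passages 1 and 2. At an unadjusted p under 0.05 the counts were 13, 2, 4 and 2 of 14 genes, against 1160, 711, 1339 and 1929 of 10563. Between sham passages they were 0 at day 14 and 6 at day 90, against 1208 and 1474 of 10563. Within sham day 14 passage 1 the mean level of the list was 3.38, 6.14 and 2.79. Of 16 immediate early genes 2, Egr1 (1.28) and Klf6 (0.50), were called with passage, both higher, a share near the 11.7% of all genes.

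The genes whose log2 CPM over the 24 libraries was most like the members' mean z-score, of 5792 candidates at a mean of 20 CPM or more, were Wdr36 (r = 0.81), Coro1c (0.79), Hnrnpc (0.78), Ran (0.76) and Srsf9 (0.76). Those most like Hspa1a plus Hspa1b were the locus Mir703 (0.88), Pdcd6 (0.87), Psap (0.87), Tmem43 (0.87) and Ctnnd1 (0.87). These are the highest values of many and are given as descriptions.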

How the data were processed

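Total RNA of the organoids went into 3′ mRNA libraries (QuantSeq), per the labels' protocols. The deposited files hold whole-number counts per Ensembl gene, 1 file per library, and the authors' build was GRCm39 with bcl2fastq among the tools, per the submitters' processing notes. The sources used here name no aligner, counter, annotation or strand setting. Symbols were matched for 47224 of 47643 gene IDs. The 5 lines that name no gene were left out. Reads outside any gene came to 11.5% to 26.5% of all counts the files list, with those 5 lines included.

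Counts were fitted with edgeR 4.0.16 (R 4.3.3) with TMM factors, filterByExpr on the 8 groups and the quasi-likelihood test, with 1 mean per group over 24 libraries. The 16 comparisons were each adjusted by Benjamini-Hochberg over 10563 genes and called at 0.05. An SE is the fold change over the square root of F. Log2 CPM used a prior count of 2. Alternatives included DESeq2 1.42.0. The fit was also run on simulated counts with known changes and independent libraries. That simulation did not hold the separate interferon and Gm42418 ranges of these libraries, so it cannot show how the tests behave with them. No 2 libraries of a group differed by sampling noise alone (chi-square per degree of freedom of 2.07 or more). All members are named, and from each of 9 further lists up to 3 called genes with the smallest p per comparison. Members and lists were chosen with earlier results of these data known. Promoter windows came from RefSeq on GRCm38.p6, for sequence only.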

Additional observations from a re-analysis of the deposited data

How the results depend on the processing

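Each result of the 10 chaperones was recomputed under 11 kinds of alternative, of which leaving out each of 24 libraries is 1, and 1 more chosen after the data were seen (the interferon level as a covariate). Of 2550 member values, 2447 kept direction and call, 18 lost a call, 24 gained one and 61 changed direction, all of the latter with no call. Without a filter on low counts the number of members called was 6 among the 8 groups (3 as reported), 5 in the mean IR effect (1), 1 in the IR effect at day 90 in passage 2 (0) and 1 in the day effect in sham passage 1 (0). DESeq2 gave 2 in the mean IR effect and 1 in the day effect in sham organoids of each passage. Total-count scaling gave 2 in the mean day effect (1) and 1 in the day effect in sham of each passage, and moved the median of all genes to 0.14 in the mean day effect. The stricter filter (5 CPM in 3 libraries) and leaving out the ribosomal RNA genes gave 1 in the day effect in sham passage 1. The Gm42418 share as a covariate gave 1 in the mean passage effect (2) and 2 in the mean day effect. The interferon covariate gave 1 among the 8 groups, 0 in the mean passage effect and 1 in the day effect in sham of each passage. Fits of only the compared groups cannot give the mean effects or the test among 8 groups.

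Leaving out a library gave 1 to 4 members in the mean IR effect, 1 to 2 in the mean passage effect, 1 to 2 in the mean day effect, 0 to 2 in the IR effect at day 90 in passage 2 and 0 to 1 in the day effect in sham of each passage. The replicate number as a block gave 2 members in the mean IR effect, Hsph1 and Hsp90aa1, and changed no other count of members. Over all genes the number called among the 8 groups (1586) was 3109 with no filter, 1018 with the Gm42418 covariate and 997 with the interferon covariate. In the mean IR effect (1162) it was 532 and 679 with these covariates and 1774 without IR day 90 passage 2 replicate 1. In the mean passage effect (1232) it was 746 and 531 with the covariates, and in the mean day effect (508) 1410 with total counts, 970 with no filter, 280 with the Gm42418 covariate and 319 without sham day 90 passage 1 replicate 2. The IR effects within single days and passages called 36, 2, 5 and 520 genes, 123, 17, 86 and 628 with DESeq2, 460, 200, 465 and 1044 with no filter, and 81, 0, 12 and 85 when only the compared groups were fitted. Total counts moved the median of all genes by 0.25 and 0.23 in the day effects in sham and by -0.19 and -0.10 in the IR effects at day 90. The numbers, taken from the sample titles, differ from those the files carry for some IR libraries of day 90. Of 24 same-numbered pairs 12 had deviations correlated above 0.1 (from -0.18 to 0.38 over all pairs), and in 0 of 8 comparisons did all 3. IR libraries of passage 2 and passage 1 were not compared in this way. Whether same-numbered libraries share a source therefore cannot be told from these values.

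Directions changed as follows, as log2 fold changes. With total counts these were the IR effects of Hspe1 (0.029) at day 14 in passage 2, of Hspa8 (-0.032), Hspd1 (-0.11) and Hspe1 (-0.17) at day 90 in passage 1 and of Hspb1 (-0.027) in passage 2, the mean IR effects of Hspd1 (-0.011) and Chordc1 (-0.0055), and the mean day effects of Hsp90aa1 (0.087) and Hspd1 (0.081). With no filter they were the IR effects of Hspd1 (-0.0016) at day 14 in passage 2 and Hspe1 (-0.016) at day 90 in passage 1. With the Gm42418 covariate they were the IR effects of Hsph1 (-0.25) and Hspe1 (-0.028) at day 90 in passage 1 and Hspb1 (-0.017) in passage 2, and the mean day effect of Hsp90aa1 (0.047). With the interferon covariate they were the IR effects of Hspd1 at day 14 in passage 2 (-0.026) and of Hspd1 (-0.0057) and Hspe1 (-0.055) at day 90 in passage 1, the mean IR effects of Hspd1 (-0.023) and Chordc1 (-0.028), the mean passage effects of Hspa1a (-0.11) and Hspa1b (-0.017) and the mean day effect of Hspa1b (-0.0088). The cause was not tested.

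Leaving out a library turned the direction within these ranges. At day 14 in passage 1 the IR effect ran from -0.016 to 0.66 for Hspa1a, -0.29 to 0.011 for Hspd1 and -0.41 to 0.023 for Hspe1. At day 14 in passage 2 it ran from -0.17 to 0.49 for Hspb1, -0.078 to 0.15 for Hspd1, -0.060 to 0.080 for Hspe1, -0.27 to 0.023 for Dnajb1 and -0.027 to 0.21 for Chordc1. At day 90 it ran from -0.030 to 0.21 for Hspd1 and -0.16 to 0.22 for Hspe1 in passage 1, and in passage 2 from -0.13 to 0.97 for Hspa1b, -0.13 to 0.16 for Hspa8, -0.21 to 0.40 for Hspb1 and -0.15 to 0.043 for Hspe1. The mean IR effect ran from -0.011 to 0.077 for Hspd1 and -0.11 to 0.0020 for Hspe1, the mean passage effect of Hspa1a from -0.015 to 0.21 and the mean day effect of Hspa1b from -0.14 to 0.18. Hspa1a had as few as 15 counts in a library, which limits its precision.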
